A study of Mus musculus with 4 samples.

Results

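Chromosome 12 outside the immunoglobulin heavy chain locus (Igh) was examined in the genomic DNA of 4 mouse liver tumours. Its members were all array probes placed on chromosome 12 of the mouse build mm9 that start before or after the window of Igh. The last member before the window ends at position 114426640 and the first after it starts at position 117295038. The 205 probes in the window were left out. The rule left 7251 of the 169093 placed probes, 6918 before Igh and 333 after it. They ran from position 3095298 to position 121252543, and neighbours lay 10133 bp apart in the median. The files name a gene for 4630 of them, 788 names in all. No member lacked a value in any tumour.

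The tumours came from 4 individual C57BL/6J mice that were not treated and that had lost Trp53 in the liver. The reference was spleen DNA of 3 pooled littermates of the same sex, although the labelling protocol gives liver for it. Both DNAs of each array are labelled male and Trp53-/-, so the reference is labelled with the deletion too. Age and the promoter behind the deletion are not given in the sources used here. Tumour DNA carried the red dye Cy5 and the reference carried the green dye Cy3 on every array, with no dye swap. The numbers 1 to 4 only name the tumours, and 1 array was run for each.

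In comparative genomic hybridization the 2 DNAs compete for each probe, and the log2 ratio of the dyes follows the relative copy number of the probed position. A chromosome gained or lost as a whole in the tumour cells moves every probe on it by about the same amount, and normal cells in the tumour piece or cells without the change make the shift smaller. Mouse chromosome 12 carries Igh near its distal end, a cluster of serpin genes expressed in liver, the imprinted Dlk1-Dio3 domain, and genes for MYC's partner MAX, the microRNA-processing enzyme DICER1 and several repair factors. Igh is rearranged in B cells, which are abundant in spleen, the labelled source of the reference DNA. A loss of 1 of 2 copies in every cell would give a log2 ratio of -1. In such bulk DNA a loss in fewer cells and more normal cells in the piece cannot be told apart.

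Between 98.9% and 99.9% of the spots were well above background in either channel. The spread between neighbouring probes was wider on the array of tumour 2, with an SD of 0.37, than on the arrays of tumours 1, 3 and 4, with 0.12, 0.15 and 0.15 (log2). The quality measure of this spread recorded with each array was out of range for tumour 2, at 0.36, and in range for tumours 1, 3 and 4. On the X chromosome the means were -0.82, -0.054, -0.0061 and 0.84 for tumours 1 to 4, and on the Y chromosome they were 2.22, -0.087, -0.20 and -2.35. These values go against the labelled match in sex on the arrays of tumours 1 and 4. Across all placed probes the arrays of tumours 1 and 4 correlated at -0.61. Across autosomal probes they correlated at 0.18, and across the chromosome 12 probes at 0.16. The labels state the dyes, so the direction of each ratio was kept as labelled, and the values with the sign of either array turned are given with the mean below.

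The array is printed with synthetic probes, of which 33 on chromosome 12 outside Igh were spotted 5 times. Of these, 4 are shown because probe composition goes with the ratio in tumour 2, as described further on: the first and the last along the chromosome, and the ones with the lowest and the highest share of G and C. They lie at chr12:8965533-8965590 (beside Matn3), chr12:114098981-114099036 (beside Gpr132), chr12:33065223-33065282 (beside the cDNA AK038660) and chr12:89700928-89700975 (no gene name), all in mm9. Capitals mark G and C, and the strand is not given in the sources used here.
Matn3 probe: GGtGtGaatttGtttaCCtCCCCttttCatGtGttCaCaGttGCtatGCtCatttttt
Gpr132 probe: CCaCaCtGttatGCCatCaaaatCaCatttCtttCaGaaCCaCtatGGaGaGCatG
AK038660 probe: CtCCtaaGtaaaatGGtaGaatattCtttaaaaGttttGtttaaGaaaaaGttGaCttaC
Unnamed probe: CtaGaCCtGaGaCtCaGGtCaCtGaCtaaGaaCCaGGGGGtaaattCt
The Matn3 probe, with 37.9% G and C, read -0.21, -0.65, -0.42 and -0.55 in tumours 1 to 4. The Gpr132 probe, with 41.1%, read -0.22, 0.90, 0.051 and 0.0027. The AK038660 probe, with 25%, read -0.097, -1.04, -0.22 and -0.18. The unnamed probe, with 47.9%, read -0.050, 0.34, -0.16 and -0.39. In tumour 2 the G- and C-poor AK038660 probe was the lowest of the 4. The Gpr132 and unnamed probes, the richest in G and C, were above 0 there. These 4 probes kept no such order in tumours 1, 3 and 4. Over all chromosome 12 probes the ratio did rise with G and C in those tumours. Probes with 30% or less averaged -0.20, -0.14 and -0.22 in tumours 1, 3 and 4, and those over 45% averaged 0.0008, -0.042 and -0.042. Over the 33 probes, the median SD between the 5 spots of a probe was 0.052, 0.085, 0.063 and 0.090 in tumours 1 to 4, against an SD between probes of 0.12, 0.46, 0.14 and 0.13. Their means were -0.16, -0.014, -0.14 and -0.17, and 30, 17, 26 and 30 of the 33 lay below 0.

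Chromosome 12 was below the autosomal median in all 4 tumours. The mean over its 7251 probes was -0.18 in tumour 1, -0.042 in tumour 2, -0.12 in tumour 3 and -0.18 in tumour 4, on average -0.13 ± 0.066 (SD, n = 4). Tumours 1 and 4 were lowest and nearly equal, tumour 3 was between, and tumour 2 was close to 0. As linear ratios these means are 88.2%, 97.1%, 91.9% and 88.2% of the reference. The medians of the probes were -0.18, -0.030, -0.10 and -0.17. With the sign of the array of tumour 1 turned the mean over tumours would be -0.041, and with that of tumour 4 turned it would also be -0.041. Individual probes followed: 91.4%, 53.1%, 79.4% and 87.0% of the chromosome 12 probes lay below 0 in tumours 1 to 4, against 47.6%, 51.3%, 48.3% and 47.7% of the probes on the 16 autosomes other than 9, 12 and 15.

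Chromosomes 9 and 15 were set beside it, since they held all of the bins that passed the test described further on outside chromosome 12. Chromosome 9 averaged -0.17, -0.0031, -0.12 and -0.20 in tumours 1 to 4, and chromosome 15 averaged 0.21, 0.29, 0.14 and 0.24. Each of the other 16 autosomes lay between -0.074 and 0.089 in tumour 1, between -0.093 and 0.020 in tumour 2, between -0.043 and 0.0083 in tumour 3 and between -0.023 and 0.021 in tumour 4. Chromosome 12 was thus below all of those 16 in tumours 1, 3 and 4. In tumour 2 it lay within their range, and 3 autosomes were lower. In tumour 4 the autosome below chromosome 12 was chromosome 9, and in tumours 1 and 3 no autosome was below it.

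**Figure D1:**
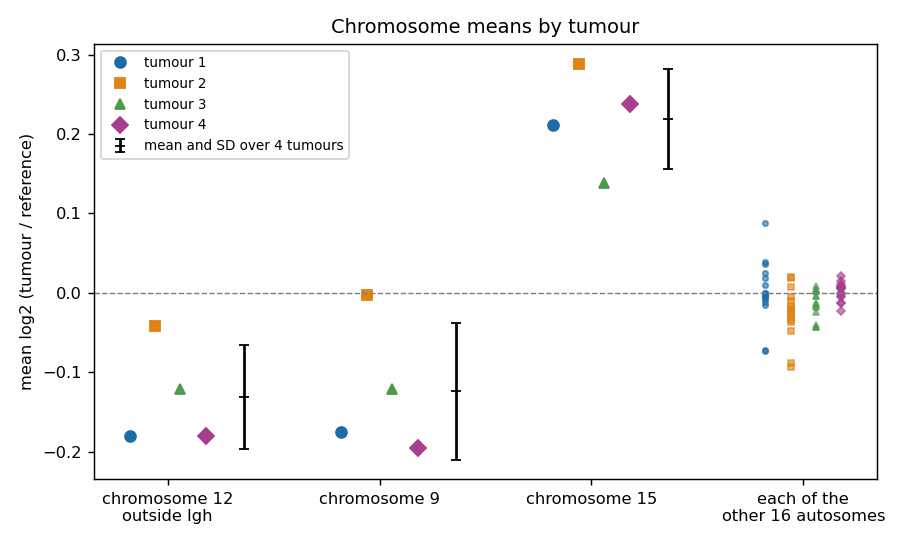
Mean log2 ratio (tumour over reference, vertical axis) of chromosome 12 outside Igh, chromosome 9, chromosome 15 and each of the other 16 autosomes, by tumour; black bars are the mean and SD over the 4 tumours. Chromosome 12 lies between -0.18 and -0.042, below the other 16 autosomes in tumours 1, 3 and 4 and among them in tumour 2.

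Chromosomes 12 and 9 moved by similar amounts. Chromosome 12 minus chromosome 9 was -0.0056, -0.039, -0.00034 and 0.015 in tumours 1 to 4, on average -0.0074 ± 0.023 (SD, n = 4; p = 0.625, exact two-sided sign-flip permutation test). The difference was below 0 in 3 tumours and above 0 in tumour 4, and it was smaller than the spread between tumours. Without tumour 2 its mean was 0.0030, so its sign rests on that tumour. Chromosome 12 minus chromosome 15 averaged -0.35 ± 0.071, and chromosome 12 minus the other 16 autosomes averaged -0.12 ± 0.079, each below 0 in 4 of 4 tumours (p = 0.13 each, exact two-sided sign-flip permutation test). Adjusted by Benjamini-Hochberg over these 3 differences the p-values were 0.625, 0.19 and 0.19. The unadjusted p of 0.13 is the smallest that 4 tumours allow, so none of these tests could pass 0.05.

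With the processing reported here, the tumours kept the order of chromosome 12 nearly, but not fully, on chromosome 9. From the lowest mean up, the order on chromosome 12 was 1, 4, 3 and 2, with 1 and 4 nearly equal. On chromosome 9 it was 4, 1, 3 and 2. Centred on the mode, tumours 1 and 4 read -0.191 and -0.198 on chromosome 12. Both chromosomes then had the order 4, 1, 3 and 2. With normexp background correction both had the order 1, 4, 3 and 2. With the intensity trend removed the orders still differed. Whether tumour 1 or tumour 4 was lower on chromosome 12 thus depended on the processing. With the sign of its array turned, tumour 1 or tumour 4 would read 0.18 on chromosome 12 and be the highest there. On chromosome 15, from the highest mean down, the order was 2, 4, 1 and 3. With the labelled directions tumour 2 had the smallest chromosome 12 shift and the largest chromosome 15 shift. With normexp background correction tumour 1 was the highest on chromosome 15, at 0.320, against 0.313 in tumour 2. Tumour 2 kept the smallest chromosome 12 shift there, at -0.065. With 4 tumours, fewer than the 6 that a correlation would need, no correlation of chromosome 12 with either chromosome was computed.

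The shift of chromosome 12 lay in the tumour channel on the arrays of tumours 1, 3 and 4. On the array of tumour 2 both channels were near the other 16 autosomes, and the reference value was near those of the other arrays. The small difference of tumour 2 therefore cannot be placed in either channel alone. Relative to the other 16 autosomes, the mean log2 signal of the chromosome 12 probes was -0.17, 0.0025, -0.095 and -0.17 in the tumour channel of the arrays of tumours 1 to 4, and 0.012, 0.018, 0.015 and 0.015 in the reference channel. The reference channel thus varied by 0.0064 between arrays and the tumour channel by 0.18. On chromosome 15 the reference channel of the array of tumour 1 was 0.093, against 0.011 to 0.028 on the arrays of tumours 2 to 4.

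**Figure D2:**
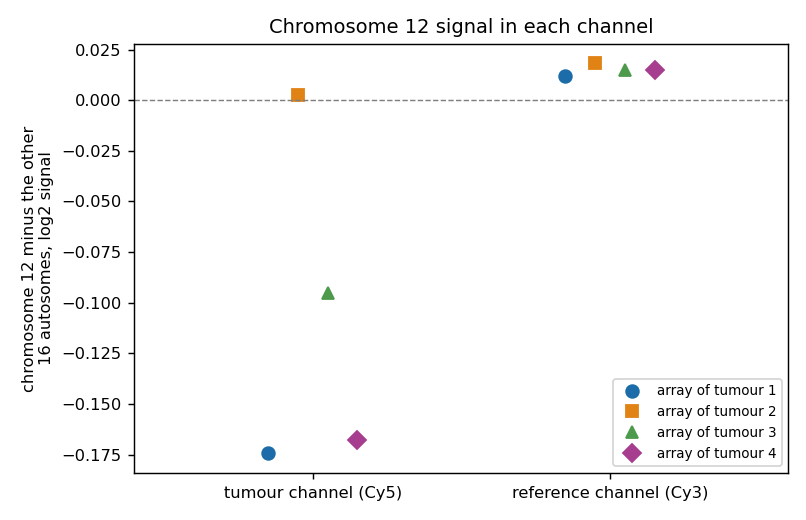
Mean log2 signal of the chromosome 12 probes minus that of the other 16 autosomes (vertical axis), for the tumour channel and the reference channel of each array. The 4 reference values lie within 0.0064 of each other, and the tumour values spread over 0.18 in the order of the ratios.

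Along the chromosome, the probes were averaged in bins of 5 Mb with at least 20 probes, which gave 25 bins, and each bin was tested against 0 over the 4 tumours with limma. Of the 25 bins, 20 were lower at a Benjamini-Hochberg adjusted p of 0.05 or less and 0 were higher. Over all 502 autosomal bins 34 were lower, a background of 6.77%, and the 14 of them off chromosome 12 were all on chromosome 9. All 25 bin means over tumours were below 0, between -0.16 and -0.073. In 20 of the 25 bins the value was below 0 in 4 of 4 tumours, against 84 of the 502 autosomal bins, or 16.7%. With the array of tumour 1 or of tumour 4 turned this held in 0 of the 25. That outcome was fixed, since all 25 bins were below 0 in both tumours as labelled. The count of lower bins depended on single arrays: limma called 5 bins without tumour 1, 25 without tumour 2, 7 without tumour 3 and 14 without tumour 4. It was 13 with bin medians and 0 with the sign of the array of tumour 1 or of tumour 4 turned.

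The values per tumour were close together along the chromosome in tumours 1 and 3. The 25 bins ran from -0.20 to -0.15 in tumour 1, from -0.12 to 0.14 in tumour 2, from -0.14 to -0.092 in tumour 3 and from -0.25 to -0.15 in tumour 4. All 25 bins were below 0 in tumours 1, 3 and 4, and 20 of 25 in tumour 2. All bins were also below 0 on chromosomes 7, 9 and 17 in tumour 1. The same held on chromosomes 4, 9, 10 and 14 in tumour 3, and on chromosome 9 in tumour 4. In tumour 2 the count was 26 of 27 on chromosome 8 and 29 of 32 on chromosome 3. It was 7 of 25 on chromosome 11 and 0 of 21 on chromosome 15. The count of chromosome 12 in tumour 2 was thus within the range of the other autosomes. The lowest bin, from 55011625 to 59973482, read -0.19, -0.12, -0.13 and -0.21 and averaged -0.16 ± 0.045 (SD, n = 4; limma adjusted p = 0.00212). The genes with most probes in it were Slc25a21, a mitochondrial carrier gene, and Garnl1, an older name of a gene for a subunit of the Ral GTPase-activating complex. Slc25a21, with 56 probes, averaged -0.15 and Garnl1, with 27 probes, averaged -0.19. The highest bin, from 105023969 to 109959898, read -0.17, 0.14, -0.10 and -0.16 and averaged -0.073 (limma adjusted p = 0.618). The genes with most probes there were the cytoskeletal regulator gene Evl, whose 19 probes averaged -0.049, and the cDNA BC156654, whose 11 probes averaged -0.018. In tumours 1, 3 and 4 the highest bin was below 0 like all others, and tumour 2 alone was above 0 there.

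**Figure D3:**
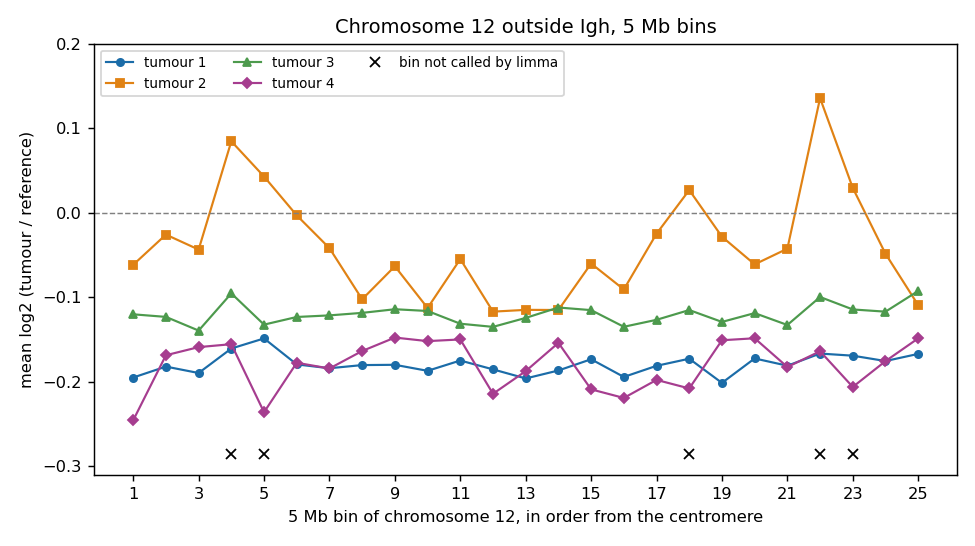
Mean log2 ratio (vertical axis) of the 25 bins of 5 Mb of chromosome 12 outside Igh, in order along the chromosome (horizontal axis), 1 line per tumour; crosses mark the 5 bins that limma did not call lower. Tumours 1, 3 and 4 stay below 0 in all bins, and tumour 2 is above 0 in the 5 marked bins.

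The 5 bins that did not pass were numbers 4, 5, 18, 22 and 23 from the centromere, with adjusted p-values from 0.0962 to 0.618 (limma). In tumour 2 they read 0.027 to 0.14, against -0.12 to -0.0029 in the 20 bins called lower. In tumours 1, 3 and 4 the same 5 bins read -0.17 to -0.15, -0.13 to -0.095 and -0.24 to -0.16, values that overlap those of the 20 called bins. Their mean probe content of G and C was 37.0% to 37.6%, above the 36.0% to 36.7% of the 20 called bins with no overlap. Across the 25 bins, bin mean and G and C content correlated at 0.63, 0.91, 0.31 and -0.16 in tumours 1 to 4. This is a description over neighbouring bins of the same arrays. The part of probe composition in the calls was not tested beyond the settings given here. With the trend on probe G and C content removed from each array, 21 of the 25 bins were lower. Bin mean and G and C content then correlated at 0.41, 0.84, 0.22 and -0.23 in tumours 1 to 4, so that in tumour 2 most of the correlation remained.

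Pooled over the other 16 autosomes, the ratio was also higher at probes richer in G and C. There, probes with 30% or less averaged -0.011, -0.32, -0.027 and -0.041 in tumours 1 to 4, and those over 45% averaged 0.10, 0.43, 0.044 and 0.061. In tumour 2 the chromosome 12 probes with 30% G and C or less averaged -0.35, against -0.32 on the other 16 autosomes, and those over 45% averaged 0.435, against 0.429 on the other 16 autosomes, a wider span than in tumours 1, 3 and 4. In tumour 1 chromosome 12 minus the other 16 autosomes was -0.19, -0.19, -0.19, -0.14 and -0.10 from the class of lowest to that of highest content. Weighted over the classes, the difference of chromosome 12 from the other 16 autosomes was -0.19, -0.017, -0.11 and -0.18 in tumours 1 to 4, on average -0.12 ± 0.079 (SD, n = 4). The unweighted differences were -0.18, -0.016, -0.11 and -0.18. The weighted and unweighted differences were about equal in each tumour. The mean probe content of G and C was 36.53% on chromosome 12 and 36.46% on the other 16 autosomes. Weighting over the classes could therefore change the difference little, and the part of probe composition in the shift was not tested by it.

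**Figure D4:**
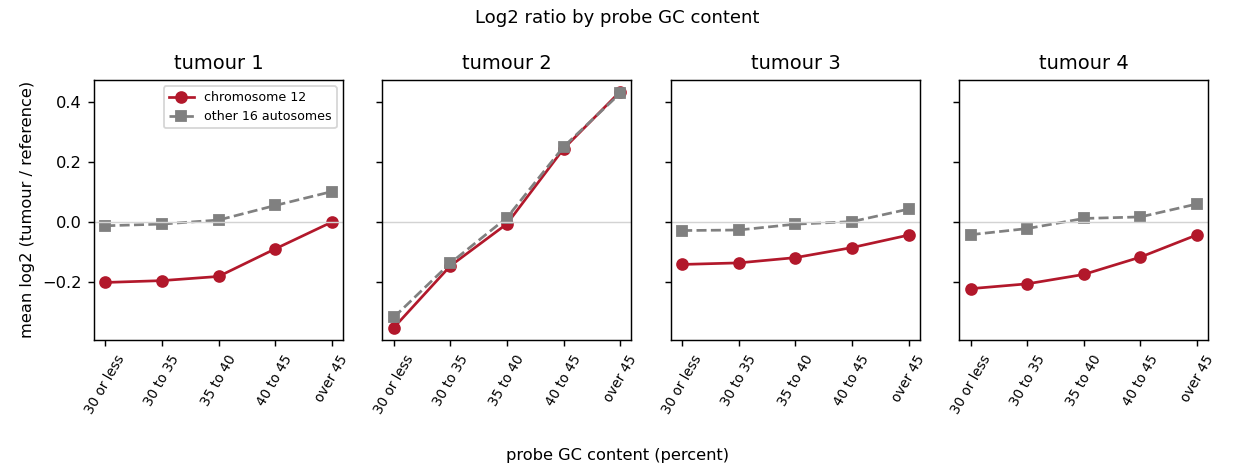
Mean log2 ratio (vertical axis) of chromosome 12 probes outside Igh and of probes on the other 16 autosomes, by class of probe G and C content (horizontal axis), 1 panel per tumour. In tumours 1, 3 and 4 chromosome 12 lies below the other autosomes in every class, and in tumour 2 both lines climb together from below -0.3 to above 0.4.

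The brightest probes showed a smaller shift in tumours 1, 3 and 4. Probes were classed by their signal in the reference channel relative to the other 16 autosomes. In the dimmest class, more than 1 log2 unit below, with 341 probes on chromosome 12, chromosome 12 minus the other 16 autosomes was -0.21, -0.00022, -0.11 and -0.18 in tumours 1 to 4. In the brightest class, more than 2 log2 units above, with 64 probes, it was -0.13, -0.063, -0.081 and -0.094. In tumour 2 the brightest class was the lowest, with all 5 classes between -0.063 and -0.00022. The part of probe brightness in the shift was not tested beyond these classes.

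The evenness of the shift was read from the SD of the bin means along the chromosome, which was 0.012, 0.065, 0.012 and 0.029 in tumours 1 to 4. Among the 19 autosomes chromosome 12 ranked 7th, 13th, 7th and 10th from the most even. The other autosomes ranged from 0.0088 to 0.039 in tumour 1, from 0.045 to 0.077 in tumour 2, from 0.0083 to 0.026 in tumour 3 and from 0.020 to 0.037 in tumour 4. By this SD chromosome 12 was within the range of the other autosomes in every tumour. A straight line against position climbed by 0.0038, 0.0035, 0.0085 and 0.010 log2 units per 100 Mb in tumours 1 to 4. The slopes of the other autosomes ran from -0.049 to 0.027, from -0.097 to 0.15, from -0.034 to 0.0065 and from -0.047 to 0.048, so that the slope of chromosome 12 in tumour 3 was the highest of the 19. The SD of the bin means was 1.31, 2.66, 1.15 and 2.64 times the SD that the spread of single probes would give if probes were independent, against medians over the other autosomes of 1.80, 2.59, 1.38 and 2.70. From the lowest to the highest bin, chromosome 12 spanned 0.053, 0.25, 0.047 and 0.098.

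**Figure D5:**
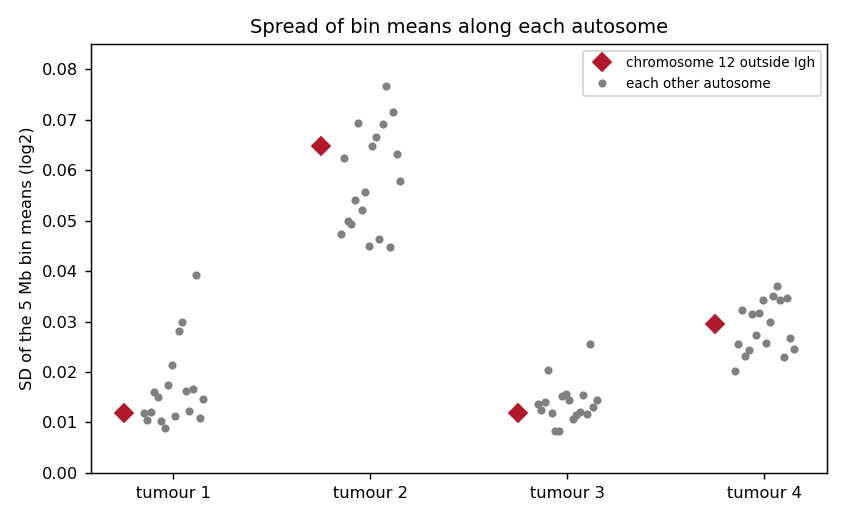
SD of the 5 Mb bin means along each autosome (vertical axis, log2) in each tumour, with chromosome 12 outside Igh as a red diamond left of the other autosomes. Chromosome 12 lies within the range of the other autosomes in all 4 tumours, at 0.012, 0.065, 0.012 and 0.029.

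The chromosome was also split into 3 stretches of 2417 probes each. The proximal stretch averaged -0.18, -0.042, -0.12 and -0.17 in tumours 1 to 4. The middle stretch averaged -0.18, -0.082, -0.13 and -0.19. The distal stretch averaged -0.18, -0.0015, -0.12 and -0.18. In tumours 1, 3 and 4 all 3 were below 0 by similar amounts, and in tumour 2 the distal stretch was at about 0. The shift was present on both sides of Igh. The 333 probes after it averaged -0.17, -0.066, -0.11 and -0.17, against -0.18, -0.041, -0.12 and -0.18 for the 6918 before it. Within 1 Mb after Igh (89 probes) the means were -0.17, -0.071, -0.11 and -0.19, and within 1 Mb before it (66 probes) they were -0.16, 0.20, -0.095 and -0.18. The tumour 2 value just before Igh was the only one of these 8 above 0.

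The pattern of small differences between bins was shared by some pairs of tumours only. Across the 25 bins, tumours 1 and 2 correlated at 0.58, tumours 1 and 3 at 0.45, tumours 3 and 4 at 0.34 and tumours 2 and 3 at 0.29. Tumours 1 and 4 correlated at -0.03 and tumours 2 and 4 at -0.09. Tumours 1 and 2 were run on 1 slide, and tumours 3 and 4 on another. These bins share probes and their composition, so the values describe the arrays only. Probes with and without a gene name had similar levels, -0.18, -0.041, -0.12 and -0.18 for the 4630 named probes and -0.19, -0.042, -0.12 and -0.18 for the 2621 unnamed ones.

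In windows of 1 Mb, 112 of which held at least 10 probes, 1 place was the highest in every tumour. The window at 19 Mb was the highest of the 112 in all 4 tumours, at 0.0089, 0.29, -0.047 and -0.028. It held 18 probes, the fewest of the 112. In tumours 1 and 4 the next highest window was that at 89 Mb, at -0.10 and -0.077. In tumour 2 it was that at 106 Mb, at 0.20. In tumour 3 it was that at 109 Mb, close behind at -0.063. Windows below 0 numbered 111, 83, 112 and 112 in tumours 1 to 4. The share over all autosomal windows was not computed, so these counts are not read as particular to chromosome 12. The window at 19 Mb opens a stretch of 26 probes from BC012645 to BC024416, 2 cDNA names, at chr12:19089191-20816555 (mm9). The stretch was chosen after its values were seen. It averaged 0.030, 0.32, -0.035 and -0.026 in tumours 1 to 4, against -0.18, -0.010, -0.13 and -0.17 for the 808 probes within 10 Mb around it. Its probes held 41.9% G and C, against 36.7% around it. Their signal in the reference channel was 2.44 log2 units above the mean of the other 16 autosomes, against 0.093 around it. The stretch was thus higher in the ratio, brighter in the reference channel and richer in G and C than its surroundings. With the trend on intensity removed from each array it averaged -0.046, -0.091, -0.079 and -0.13, below 0 in all 4 tumours, against -0.18, -0.013, -0.13 and -0.17 around it. With the trend on probe G and C content removed it averaged -0.011, 0.13, -0.050 and -0.046, against -0.18, -0.023, -0.13 and -0.18 around it. The stretch remained higher than its surroundings in tumours 1, 3 and 4 under both settings, and in tumour 2 only under the second.

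Gene by gene, 512 chromosome 12 genes outside Igh had at least 2 probes. They were below 0 in 507, 282, 479 and 498 cases in tumours 1 to 4, or 99.0%, 55.1%, 93.6% and 97.3%. Over all 13380 autosomal genes these shares were 48.1%, 50.3%, 55.3% and 57.2%. In 276 of the 512 genes the value was below 0 in 4 of 4 tumours, against a background of 16.8%, and in 0 it was above 0 in all 4. With the array of tumour 1 turned 2 genes, and with that of tumour 4 turned 3 genes, would be below 0 in all 4. Few could be, since 507 and 498 of the 512 genes were below 0 in tumours 1 and 4 as labelled. Averaged over tumours, 473 of the 512 genes were below 0, or 92.4%, against 53.7% over all genes. The genes had a median of -0.13, against -0.0083 over all genes, and ran from -0.41 to 0.15. Their single means are less precise than bins: limma called 0 of 512 genes lower at an adjusted p of 0.05 or less, against a background of 0% over all genes, and its smallest adjusted p on the chromosome was 0.0784. At an unadjusted p under 0.05, 282 of the 512 genes, or 55.1%, were lower and 0 higher, against a background of 11.0% lower. Without tumour 2, 270 of the 512 genes were called lower, so the count of 0 rests on that array, and 5 of the other settings called between 37 and 295 genes. Of 104 genes with 10 or more probes, 102 averaged below 0, or 98.1%, and 72 were below 0 in all 4 tumours, or 69.2%. Over the 2239 autosomal genes with 10 or more probes these shares were 57.8% and 17.2%.

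Genes of 5 lists, with growth, repair, liver, imprinting and length as themes, were read by these gene means, and no member of any list passed the adjusted threshold. The counts below stand against 3 shares over all autosomal genes: 53.7% averaged below 0, 16.8% were below 0 in all 4 tumours and 11.0% were lower at an unadjusted p under 0.05. Over the chromosome 12 genes the same shares were 92.4%, 53.9% and 55.1%. The growth and cancer list had 26 entries, of which 17 had at least 2 probes, 15 averaged below 0, 11 were below 0 in all 4 tumours and 11 had an unadjusted p under 0.05. Its counts were near those shares of the chromosome, and its median was -0.14, against -0.13 on the chromosome and -0.0083 over all genes. The lowest was Max, the gene of the partner through which MYC binds DNA, with 2 probes at -0.15, -0.12, -0.26 and -0.44 in tumours 1 to 4. Dicer1, whose enzyme cuts microRNA precursors, read -0.31, -0.22, -0.10 and -0.31 over 6 probes, a mean of -0.23 ± 0.098 (SD, n = 4; limma adjusted p = 0.0802). Ahr, the gene of a receptor for dioxin-like ligands, read -0.24, -0.34, -0.12 and -0.18 over 5 probes. All 3 were below 0 in every tumour. The highest, Sav1, the gene of a scaffold of the Hippo kinases, had 2 probes with 42.4% G and C and read -0.087, 0.29, 0.020 and -0.016, below 0 in 2 of 4 tumours.

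The list of DNA repair and cell cycle genes had 16 entries and 13 genes with at least 2 probes. All 13 averaged below 0, 11 of them in all 4 tumours and 11 with an unadjusted p under 0.05, with a median of -0.17. Over all autosomal genes 16.8% were below 0 in all 4 tumours, and over chromosome 12 genes 53.9%. Papola, Rdh11 and Wdr60 stand on this list although their known roles are others, in RNA tailing, retinol metabolism and transport within cilia. Wdr60 was the lowest, at -0.29, -0.48, -0.15 and -0.56 over 4 probes. Pole2, the gene of a subunit of DNA polymerase epsilon, read -0.19, -0.39, -0.29 and -0.48 over 2 probes. Ncapg2, the gene of a condensin subunit that compacts mitotic chromosomes, read -0.15, -0.35, -0.14 and -0.28 over 8 probes. Wdr60 and Ncapg2 lie beyond Igh and Pole2 before it, and each was below 0 in every tumour. The highest was the kinase gene Cdkl1, at -0.15, 0.29, 0.0037 and -0.15 over 5 probes.

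The liver list had 33 entries, 23 of them measured and 12 with at least 2 probes. Of these, 9 averaged below 0, 3 were below 0 in all 4 tumours and 3 had an unadjusted p under 0.05, with a median of -0.079. The last 2 counts were nearer the 16.8% and 11.0% over all autosomal genes than the 53.9% and 55.1% on the chromosome. They cover 12 genes only, and that difference was not tested. The share averaging below 0, 9 of 12, lay between the 53.7% over all autosomal genes and the 92.4% on the chromosome. All 12 genes were below 0 in tumour 1, and each gene not below 0 in all 4 tumours was above 0 in tumour 2. The lowest was Acot3, the gene of an acyl-CoA thioesterase of peroxisomes, at -0.15, -0.30, -0.32 and -0.29 over 2 probes. Serpina12, which encodes the secreted protein vaspin, averaged -0.17 over 2 probes. Aldh6a1, of valine breakdown, read -0.11, -0.12, -0.13 and -0.33 over 3 probes. The highest was Serpina6, the gene of corticosteroid-binding globulin, at -0.17, 0.51, -0.0060 and 0.052 over 2 probes. Its mean was above 0 through the value of tumour 2, without which it was -0.040.

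The imprinted Dlk1-Dio3 list had 8 entries, and the 3 found by symbol, Dlk1, Rtl1 and Dio3, had 1 probe each and so entered no test. Single probes of the 3 differed: Dlk1, of a Notch-like transmembrane protein, read 0.0040, 0.13, -0.042 and -0.058 in tumours 1 to 4. Rtl1, derived from a retrotransposon, read 0.20, 0.23, 0.13 and 0.12. Dio3, of the enzyme that inactivates thyroid hormone, read -0.045, -0.48, -0.27 and -0.23. The first lay on both sides of 0, Rtl1 above 0 in all 4 tumours and Dio3 below 0 in all 4, and these 3 are named because no other entry was found by symbol. Probes that the files name by an accession were not matched to the list.

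Long genes carry many probes and give firmer means. All 18 on the list averaged below 0, 12 of them in all 4 tumours and 13 with an unadjusted p under 0.05, with a median of -0.12. Of the chromosome 12 genes with 10 or more probes 69.2% were below 0 in all 4 tumours, against 17.2% of the autosomal genes with 10 or more probes. The list also holds Eml1 with 7 probes and Ccdc88c with 6. Gphn, the gene of a scaffold of inhibitory synapses that also serves in molybdenum cofactor synthesis, had 51 probes at chr12:79331195-79777623 (mm9) and read -0.20, -0.14, -0.11 and -0.20, a mean of -0.16 ± 0.045 (SD, n = 4; limma adjusted p = 0.101). Dock4, the gene of an activator of Rac GTPases, read -0.15, -0.14, -0.12 and -0.18 over 39 probes. Dnahc11, of a dynein heavy chain of cilia, averaged -0.15 over 27 probes. The highest, the syntrophin gene Sntg2, read -0.18, 0.10, -0.12 and -0.072 over 22 probes, above 0 in tumour 2 only.

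Among the 385 chromosome 12 genes with at least 3 probes, the 5 lowest means were those of Mia2 at -0.40, Dlst at -0.38, Wdr60 at -0.37, Six6os1 at -0.37 and 5730410I19Rik at -0.36, each over 3 or 4 probes and below 0 in all 4 tumours. Mia2 encodes a protein of cargo export from the endoplasmic reticulum, and Dlst a subunit of the 2-oxoglutarate dehydrogenase of the citric acid cycle. Mia2 read -0.24, -0.72, -0.32 and -0.32 in tumours 1 to 4, and Dlst read -0.40, -0.47, -0.12 and -0.53. The 5 highest were AK146348 at 0.11, BC024416 at 0.11, Serpina9 at 0.070, Asb2 at 0.069 and BC012645 at 0.067, with 37.7% to 43.5% G and C in their probes. In tumour 2 these 5 read between 0.30 and 0.54, above all their values in tumours 1, 3 and 4, which lay between -0.17 and 0.045. BC024416 and BC012645 make up the bright stretch at 19 to 21 Mb. No gene at either end passed the adjusted threshold, and all 5 highest means fell below 0 without tumour 2.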

How the data were processed

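Each array measured genomic DNA of 1 tumour against the reference in 2 colours. Per the file headers, the deposited intensities came from Agilent Feature Extraction 12.0.1.1 (12.0.0 per the submitters' processing notes), placed on mm9, and the processed intensity of each channel had its background subtracted and its dyes normalized within the array. The deposited log10 ratio served to check direction. Spots flagged as non-uniform or outliers in either channel were left out (81 to 258 placed spots per array), repeated spots were averaged, and log2 of processed red over processed green, computed from the deposited intensities, was centred on the autosomal median. No loess or quantile step was used.

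Bins of 5 Mb (at least 20 probes) and genes (at least 2 probes) were tested against 0 over all autosomes with limma 3.58.1 in R 4.3.3, two-sided, with Benjamini-Hochberg adjustment. The ratio against 0 leaves out the spread of the reference. The fits were tested on simulated data with independent noise of the same size on every array. That test leaves out the wider spread of the array of tumour 2 and trends shared by neighbouring bins. Chromosome differences used exact sign-flip permutation tests (Python 3.11.15, scipy 1.17.1). The number of arrays, 4, limits the precision. The labels name separate mice, and tumours 1 and 2 shared a slide, as did 3 and 4.

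Named genes were, of each list, up to 3 with the lowest and 1 with the highest mean among members with at least 2 probes, the 5 lowest and 5 highest with at least 3 probes, and 2 landmarks each of the lowest and the highest bin. Members and lists were chosen with earlier results of these data known. Of 101 list entries 84 matched a gene name in the files. Alternatives changed the background correction (normexp, offset 50), centring, spot filters, trends on intensity and on probe G and C content, bin size, probe minimum, array weights, slide, array sign and the tumours included. The difference at matched G and C content, the trend settings of the bright stretch and the counts below 0 with an array turned were chosen after seeing the data. Igh was not analysed here.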

Additional observations from a re-analysis of the deposited data

Results flagged for a closer look

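In 7 of 56 groups of 4 values examined (the 25 bins, the named genes, the chromosome mean and its difference from chromosome 9), the highest or lowest tumour lay farther from the others than Dixon's criterion allows. Chance alone flags about 1 in 20 groups, but that rate does not hold here: all 7 were named genes, most of which were chosen for a low or high mean, which 1 outlying tumour can bring about. None of the 25 bins met the criterion. In 5 of the 7 the tumour was 2, the array with the widest spread between neighbouring probes. These were Mia2, low in tumour 2 at -0.72, and Asb2 at 0.38, BC024416 at 0.44, AK146348 at 0.54 and BC156654 at 0.37, all high in tumour 2. In Acot3, tumour 1 was the highest at -0.15, against -0.32 to -0.29 in tumours 2 to 4. In Aldh6a1, tumour 4 was the lowest at -0.33, against -0.13 to -0.11 in tumours 1 to 3. Each of these genes had between 2 and 11 probes. The part of probe number and of array spread in these values was not tested.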

How the results depend on the processing

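Of the summary results (chromosome mean, difference from chromosome 9, evenness, counts of bins and of genes), 74 values under alternatives stayed the same. For a count this meant within 1.5 times. For the chromosome mean and the evenness it meant a move smaller than the SD between tumours, and for the difference from chromosome 9 the same sign only. Some of the 74 could not change. Other centring leaves the evenness and the difference from chromosome 9 as they are, and a turned sign leaves the evenness as it is. Another 15 moved and 1 reversed. The chromosome 12 mean was below 0 under every setting run, from -0.16 (without tumour 2) to -0.11 (without tumour 1) with single tumours left out. It was -0.0407 with the array of tumour 1 and -0.0408 with that of tumour 4 turned. The difference from chromosome 9 ran from -0.0149 (without tumour 4) to 0.0030 (without tumour 2), the reversal, and was -0.0149 with tumour 4 turned, against the reported -0.0074. The mean SD of bin means was 0.0295, and ran from 0.0178 (without tumour 2) to 0.0354 with single tumours left out. Lower bins numbered 20 of 25, and 5 to 25 with single tumours left out. They were 46 of 59 in 2 Mb bins, 12 of 13 in 10 Mb bins, 13 of 25 by bin medians, and 0 with either sign turned. With the slide as a random block they were 22 (estimated correlation -0.27), and with arrays weighted by noise 25. Lower genes numbered 0 of 512, and 0 to 270 with single tumours left out. They were 188 with normexp, 37 with the intensity trend removed, 71 of 385 with at least 3 probes per gene, 197 with the slide as a random block (estimated correlation -0.34) and 295 with arrays weighted by noise. Counts in 2 Mb and 10 Mb bins were compared without regard to the number of bins, 59 and 13 against 25. Why the other counts moved was not tested.

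Among named genes and bins, 742 values under alternatives kept direction and side of the threshold, 97 passed it newly, 90 no longer passed it and 33 reversed. With the intensity trend removed, Sav1 was -0.0673, BC012645 -0.0925, BC024416 -0.0622, Asb2 -0.0135 and Cdkl1 0.0152. With the G and C trend removed, Sav1 was -0.0369 and Cdkl1 0.0137. With arrays weighted by noise, Sav1 was -0.0216, Serpina6 -0.0348, Asb2 -0.0124, Serpina9 -0.0427 and AK146348 -0.0146. With tumour 1 turned, Cdkl1 was 0.0735, Sntg2 0.0215, Evl 0.0108, BC156654 0.0595 and the highest bin 0.0098. With tumour 4 turned, Cdkl1 was 0.0726, Evl 0.0252, BC156654 0.0544 and the highest bin 0.0084. With single tumours left out, Sav1 ran from -0.0276 to 0.0967, Cdkl1 from -0.0993 to 0.0474, Serpina6 from -0.0403 to 0.185, BC012645 from -0.0107 to 0.102, Asb2 from -0.0351 to 0.112, Serpina9 from -0.0456 to 0.15, BC024416 from -0.0079 to 0.152, AK146348 from -0.0372 to 0.164 and BC156654 from -0.146 to 0.0278. The causes were not tested. No paired analysis was possible because the study has 1 group of tumours.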
